A study of Mus musculus with 6 samples.

Results

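The accessory subunits of complex I are the nuclear-encoded proteins that surround the catalytic core of NADH:ubiquinone oxidoreductase. The 30 genes described here were taken from the 60193 rows of the deposited table by symbol, with an Ensembl mouse identifier required. The matching used no measured value, although the list was drawn up with earlier results of these data known. Each of the 30 symbols matched a single row, and all 30 were among the 18818 genes tested, which had a mean of at least 1 FPKM over the 6 samples. FPKM, the fragments on a gene scaled for transcript length and library size, is a level per length, so levels of different genes can be set beside each other.

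Transcripts were measured by RNA-seq in 3 IVM and 3 IVO samples of MII oocytes from ICR mice, an outbred stock, aged 42 to 45 weeks. For the IVM group, mice received 5 IU of PMSG, germinal vesicle oocytes were taken 46 h later and freed of cumulus cells, and these were cultured in M16 medium for 12 h. For the IVO group, 5 IU of hCG followed PMSG after 46 h, and ovulated oocytes were recovered from the oviduct ampullae 14 h after hCG and stripped of cumulus cells with hyaluronidase. Each sample pooled 20 oocytes from 3 mice, so the spread between samples is a spread between pools. The groups differ in hCG exposure, in time and in surroundings as well as in culture, and these cannot be told apart. No gene was deleted or introduced in either group.

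Complex I takes electrons from NADH at the tip of an arm that extends into the mitochondrial matrix, passes them to ubiquinone, and pumps protons through an arm that lies in the inner membrane. It is assembled from intermediates: the N module, which holds the NADH site, the Q module, which holds the ubiquinone site, and the P module, the membrane arm with a proximal and a distal part that are built separately. Accessory subunits do not carry electrons, but many of them are needed for assembly or stability. The oocyte depends on mitochondrial oxidative phosphorylation for its ATP.

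Low FPKM values fall on steps of a single fragment, which placed the depth at 16460000 to 19260000 fragments for the IVM libraries and 17940000 to 18180000 for the IVO libraries. All FPKM together summed to between 1826740 and 2111780 per IVM library and between 1560810 and 1643680 per IVO library, and the median log2FC over all tested genes, counted as IVO minus IVM, was -0.30. The inferred mean fragment length was 200 to 216 bases for IVM and 248 to 266 bases for IVO libraries, without overlap, and its part in the differences below was not tested. All 11 oocyte markers reached at least 1 FPKM in every sample. However, 4 of the 11, Zp1, Zp2, Zp3 and Nlrp5, were DEGs lower in IVO, as were 17.9% of all tested genes. The median log2FC of the list was -0.86. The median level of the oocyte markers was 715 to 997 FPKM per IVM library and 442 to 460 FPKM per IVO library, and whether this has a part in the results was not tested. Of 12 markers of granulosa and cumulus cells, 3 reached at least 1 FPKM in every sample (Fshr, Cyp19a1 and Nr5a2), with Amh at 0 throughout. The summed level of the list was 62.0 to 64.6 FPKM for IVM against 43.9 to 53.2 FPKM for IVO. Mean FPKM in IVM and IVO was 33.97 and 15.94 for Nr5a2, a DEG, 11.06 and 11.74 for Fshr, and 17.20 and 19.76 for Cyp19a1. Below 1 FPKM, Has2, Ptx3, Tnfaip6 and Ptgs2 had higher means in IVO, and Inha, Foxl2, Hsd17b1 and Lhcgr lower ones. Of 6 oviduct markers only Epcam reached at least 1 FPKM in every sample. Their summed levels were 2.93 to 3.16 FPKM for IVM against 3.40 to 5.76 FPKM for IVO. The 4 blood markers summed to at most 0.21 FPKM in IVM and 4.13 in IVO samples, and the part of these other cell types in the results was not tested.

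Most accessory subunit transcripts stood at a lower level in the IVO oocytes. Of the 30 genes, 19 were DEGs, with an absolute log2FC of at least 1 and an adjusted P under 0.05 in limma, and all 19 were lower in IVO. Among all tested genes, 17.9% passed as lower in IVO and 0.606% as higher. In the same limma fit, 22 of the 30 were lower and 0 higher at an unadjusted P under 0.05, which 31.4% of all tested genes passed as lower and 5.56% as higher. The log2FC was negative for 28 genes and positive for 2, with a median of -1.42 and a range of -4.43 to 0.52. All 3 IVO values lay below all 3 IVM values for 23 of the 30 genes, compared with 32.6% of all tested genes. The reverse, all IVO values above all IVM values, held for 0 of the 30 and for 9.62% of all tested genes, and the groups overlapped for 7. In pooled samples, fewer cells holding a transcript and less of it per cell cannot be told apart, and neither can a smaller amount and a smaller share of the RNA amplified.

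**Figure D1:**
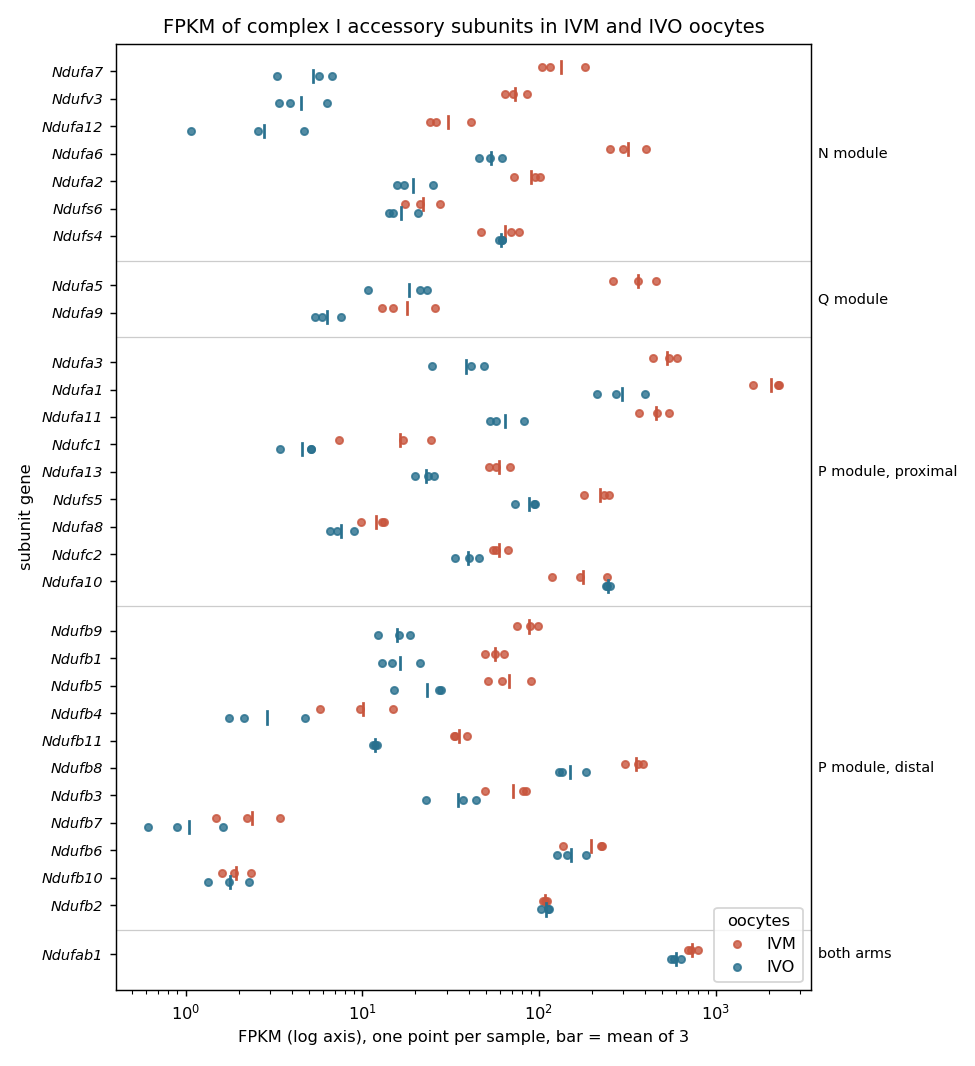
FPKM on a log axis for each of the 30 accessory subunit genes, with a point for each of the 3 IVM and 3 IVO samples, a bar at the group mean, and genes grouped by module. The IVO points lie left of all IVM points for 23 genes, by the widest margin for Ndufa7, Ndufa5 and Ndufv3, while Ndufb2, Ndufb10 and Ndufs4 overlap.

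Summed over the 30 genes, the IVM samples held 7273.91, 6645.79 and 5403.30 FPKM, whereas the IVO samples held 2091.67, 1888.54 and 2331.52 FPKM. These sums were 0.347%, 0.315% and 0.296% of all FPKM in IVM and 0.134%, 0.121% and 0.142% in IVO samples. The lowest IVM sample thus remained above the highest IVO sample on either scale. The number of these genes at 100 FPKM or more was 13, 12 and 12 in the IVM samples and 6 in each IVO sample. Within groups, IVM replicate 1 was the highest IVM sample for 22 genes and IVM replicate 3 the lowest for 21, while IVO replicate 2 was the lowest IVO sample for 24 genes and IVO replicate 3 the highest for 21.

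The order of the levels differed between the groups. Ndufa1 ranked 1 by mean FPKM in IVM and took 31.1%, 34.5% and 30.3% of the summed level, and Ndufab1 ranked 1 in IVO with 26.8%, 30.8% and 27.4%. Ndufa3 went from rank 3 in IVM to 12 in IVO, Ndufa5 from 5 to 17, Ndufa7 from 11 to 24 and Ndufv3 from 15 to 26. In the other direction, Ndufa10 went from rank 10 to 3, Ndufb6 from 9 to 4, Ndufb2 from 12 to 6 and Ndufs4 from 18 to 9. Ranks carry no test, and neighbours such as Ndufb6 and Ndufb8 in IVO changed places from sample to sample.

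The 3′ ends of the transcripts are printed here because stored maternal mRNAs are lengthened or shortened at this end during oocyte maturation, and because the signal for polyadenylation and the cytoplasmic polyadenylation element lie there. Such lengthening or shortening was not measured, and its part in the FPKM values was not tested. Windows of 30 bases from the GRCm39 annotation are shown for 4 of the genes with log2FC of at most -2.42 and for 3 with log2FC from -0.39 to 0.52, 5′ to 3′ on the mRNA strand, with AATAAA and ATTAAA in capitals. They lie at chr6:24518667-24518696 on the minus strand for Ndufa5, chr17:31750268-31750297 on the plus strand for Ndufv3, chrX:36451248-36451277 on the minus strand for Ndufa1 and chr15:58811307-58811336 on the plus strand for Ndufb9. The windows of the remaining genes are chr13:73467999-73468028 on the minus strand for Ndufs6, chr17:24941043-24941072 on the minus strand for Ndufb10 and chr1:92366742-92366771 on the minus strand for Ndufa10.
Ndufa5: ATTAAAtgtgcaATTAAAtgctctgtgatg
Ndufv3: cttgcctgtgagAATAAAaggcagagtcac
Ndufa1: tatgaaatgcatAATAAAaaattttaaaaa
Ndufb9: cacacttgccctAATAAAaggaactagaca
Ndufs6: tcccttgttttgAATAAAggatgctcccac
Ndufb10: tccactgctaaaAATAAAgtcaagagtttt
Ndufa10: gcatttaacttaATTAAAacttaatgaaat

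The last 100 bases could be searched for 23 of the 30 genes, those whose annotated transcript is within 50 bases of the listed length and ends in an exon of at least 100 bases. AATAAA or ATTAAA stood in 16 of the 23 (69.6%), compared with 79.6% of 6928 tested protein-coding genes searched in the same way. The letters TTTTAT or TTTTAAT, forms of the cytoplasmic polyadenylation element, stood in 2 of the 23 (8.70%), Ndufa2 and Ndufc2, compared with 19.1% of those genes. Ndufa2 was a DEG with a log2FC of -2.18, and Ndufc2 was not, with -0.57. Among the 6928 genes, the median log2FC was -0.01 with these letters and -0.21 without them. Ndufa7, Ndufa3 and Ndufa12, with log2FC of -4.43, -3.79 and -3.14, held none of the 4 words in this window, which says only that the letters are not in the annotated last 100 bases.

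The N module genes included the most negative log2FC of the set. Of 7 genes, 5 were DEGs lower in IVO, compared with 17.9% of all tested genes, and the median log2FC of the 7 was -2.53.

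Ndufa7, a small subunit of the matrix arm (ENSMUSG00000041881, chr17:34043537-34057291, 4 exons, GRCm39), had 181.93, 115.62 and 104.19 FPKM in the IVM samples and 6.70, 3.29 and 5.72 FPKM in the IVO samples. All 3 IVO samples were far below the lowest IVM sample. The means of 133.9 ± 42.0 and 5.24 ± 1.76 FPKM (SD, n = 3 pools each) differed 25.6-fold, with a log2FC of -4.43 (SE 0.31, limma adjusted P 6.53e-04). The inferred fragments behind these values numbered 937, 719 and 650 in IVM and 32, 16 and 29 in IVO samples.

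Ndufv3, which sits beside the NADH-binding core subunits (ENSMUSG00000024038, chr17:31739052-31751735, 4 exons), had 85.91, 70.95 and 64.16 FPKM in the IVM samples and 3.89, 3.38 and 6.31 FPKM in the IVO samples. Again no IVO sample came near the IVM range. The log2FC was -3.78 (SE 0.25, limma adjusted P 6.53e-04), a 16.3-fold difference of the means. At 1582 bases it is among the longer genes of the set.

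Ndufa12, which joins late in assembly in the place held until then by the assembly factor Ndufaf2, had 41.32, 26.12 and 24.23 FPKM in the IVM samples and 2.58, 1.07 and 4.67 FPKM in the IVO samples. The groups were apart, although IVO replicate 2 rested on 6 inferred fragments and the IVO values were spread widely. The log2FC was -3.14 (SE 0.40, limma adjusted P 0.00302). Ndufaf2, named after its values were seen, had 355.00, 535.16 and 367.81 FPKM in IVM and 337.41, 393.65 and 407.32 FPKM in IVO samples, which overlap (log2FC -0.12, limma adjusted P 0.707). Within a sample the ratio of Ndufa12 to Ndufaf2 was 0.116, 0.0488 and 0.0659 in IVM and 0.00765, 0.00272 and 0.0115 in IVO.

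Ndufa6, a protein of the LYR family that binds the mitochondrial acyl carrier protein, had 403.12, 300.22 and 253.67 FPKM in the IVM samples and 53.20, 45.84 and 62.02 FPKM in the IVO samples. Ndufa2, which has a thioredoxin-like fold, had 101.73, 95.35 and 72.68 FPKM in IVM and 17.23, 15.63 and 25.05 FPKM in IVO samples. For both genes every IVO sample was well below every IVM sample. The log2FC was -2.53 for Ndufa6 (SE 0.23, limma adjusted P 0.00123) and -2.18 for Ndufa2 (SE 0.24, limma adjusted P 0.00203).

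Neither Ndufs4 nor Ndufs6 was a DEG. Ndufs4, which holds the N module on the arm and whose loss causes mitochondrial disease, had 69.14, 76.94 and 46.93 FPKM in IVM and 59.13, 61.88 and 61.93 FPKM in IVO samples. The IVO values lay inside the IVM range (log2FC -0.05, SE 0.22, limma adjusted P 0.906), and the sign turned to 0.27 with median-ratio scaling. Ndufs6, a zinc-binding subunit, had means of 22.1 ± 5.07 FPKM in IVM and 16.6 ± 3.63 FPKM in IVO (SD, n = 3 pools each), with overlap and a log2FC of -0.39 (SE 0.25, limma adjusted P 0.302). Set against Ndufs6 in the same sample, Ndufa7 stood at 6.59, 5.43 and 5.94 in IVM and 0.323, 0.232 and 0.385 in IVO. This ratio restates the levels of Ndufa7 and Ndufs6 and is no separate test, and the same holds for the other ratios within a sample.

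Both accessory genes of the Q module were DEGs lower in IVO, as were 17.9% of all tested genes. Ndufa5, a helical subunit of the matrix arm (ENSMUSG00000023089, chr6:24518659-24528012, 5 exons), had 457.68, 364.39 and 263.31 FPKM in the IVM samples and 23.15, 10.75 and 21.25 FPKM in the IVO samples. It moved from among the most abundant of the 30 transcripts in IVM to the lower part of the list in IVO. The means of 361.8 ± 97.2 and 18.4 ± 6.68 FPKM (SD, n = 3 pools each) differed 19.7-fold, with a log2FC of -4.26 (SE 0.34, limma adjusted P 9.05e-04).

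Ndufa9, related to short-chain dehydrogenases and placed near the ubiquinone site, had 25.75, 15.01 and 12.98 FPKM in the IVM samples and 5.89, 5.38 and 7.58 FPKM in the IVO samples. The groups did not overlap, but IVM replicate 1 stood well above the other IVM samples. The log2FC was -1.33 (SE 0.29, limma adjusted P 0.0180). Without IVO replicate 1 or IVO replicate 2 the limma adjusted P was 0.0540 or 0.0601, and the gene was then no DEG, nor was it with quantile normalization (log2FC -0.83). Ndufa6 and Ndufa7 are placed in the Q module by some accounts of assembly, and with them there 4 of 4 Q module genes and 3 of 5 N module genes were DEGs, with medians of -3.40 and -2.18.

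Of 20 P module genes, 12 were DEGs with lower IVO levels and 0 with higher ones, against 17.9% and 0.606% of all tested genes. The median log2FC of the 20 was -1.33. By part, 6 of 9 proximal genes and 6 of 11 distal genes were DEGs, with medians of -1.34 and -1.25. In limma, 15 of the 20 were lower and 0 higher at an unadjusted P under 0.05, against the 31.4% and 5.56% of all tested genes given above.

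In the proximal part, Ndufa1, a single-pass membrane subunit required for assembly and encoded on the X chromosome (ENSMUSG00000016427, chrX:36451241-36454849, 3 exons), was the most abundant of the 30 transcripts in IVM. It had 2259.68, 2291.38 and 1634.64 FPKM in the IVM samples and 272.24, 212.12 and 398.63 FPKM in the IVO samples. Every IVO sample was far below every IVM sample. The log2FC was -2.84 (SE 0.26, limma adjusted P 0.00130), a 7.01-fold difference of the means. Relative to Ndufab1 in the same sample, Ndufa1 stood at 2.84, 3.16 and 2.34 in IVM and at 0.486, 0.364 and 0.625 in IVO.

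Ndufa3, another single-pass subunit, had 605.84, 541.35 and 441.34 FPKM in the IVM samples and 41.15, 24.97 and 49.13 FPKM in the IVO samples. Ndufa11, a multi-pass membrane protein, had 544.79, 467.92 and 366.77 FPKM in IVM and 57.39, 52.55 and 81.93 FPKM in IVO samples. Ndufa3 was above Ndufa11 in each IVM sample and below it in each IVO sample. The log2FC was -3.79 for Ndufa3 (SE 0.28, limma adjusted P 7.27e-04) and -2.83 for Ndufa11 (SE 0.24, limma adjusted P 0.00106).

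Smaller differences were found for Ndufa13, Ndufs5 and Ndufc1. Ndufa13, also known as GRIM-19 and studied for a role in cell death, had 57.35, 69.04 and 51.90 FPKM in IVM and 23.55, 19.79 and 25.37 FPKM in IVO samples (log2FC -1.34, SE 0.20, limma adjusted P 0.00508). Ndufs5, an intermembrane space subunit with a pair of disulfide bonds in its CHCH fold, had 248.90, 233.64 and 180.05 FPKM in IVM and 93.96, 73.40 and 95.47 FPKM in IVO samples (log2FC -1.32, SE 0.20, limma adjusted P 0.00558). For these genes the IVO values clustered well below the IVM values. With quantile normalization the log2FC fell short of the fold threshold for both, at -0.85 and -0.81. For Ndufs5, a gene of 525 bases, it was also short of it with scaling to the same sum (-0.99) and with the length trend removed (-0.65).

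Ndufc1, a small membrane subunit of 315 bases, had 24.44, 7.41 and 16.98 FPKM in the IVM samples and 5.10, 3.44 and 5.10 FPKM in the IVO samples. IVM replicate 2 was close to the IVO range, and the IVO values rested on 5, 4 and 6 inferred fragments. The log2FC was -1.51 (SE 0.41, limma adjusted P 0.0366). This call was lost without IVM replicate 1 or 3 (limma adjusted P 0.109 or 0.117) and without IVO replicate 1, 2 or 3 (0.0730, 0.105 or 0.0689). With the length trend removed the log2FC was -0.59. The call was also lost without a filter and with median-ratio scaling, quantile normalization or scaling to the same sum. Ndufc1 was a DEG in 8 of the 19 fits run.

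Ndufa10, Ndufa8 and Ndufc2 were not DEGs. Ndufa10, a subunit with the fold of a nucleoside kinase, had 170.60, 118.72 and 241.69 FPKM in the IVM samples and 252.51, 238.77 and 242.84 FPKM in the IVO samples. IVM replicate 3 stood within the IVO range and the other IVM samples below it. The log2FC was 0.52 (SE 0.26, limma adjusted P 0.195), the highest of the 30 genes and the only log2FC that was positive in all 19 fits run, and the gene passed as a DEG higher in IVO with quantile normalization (1.02, limma adjusted P 0.0418).

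Ndufa8, a CHCH protein of the intermembrane space, had means of 12.0 ± 1.92 FPKM in IVM and 7.60 ± 1.25 FPKM in IVO, and Ndufc2 had 59.4 ± 6.32 and 39.9 ± 6.28 FPKM (SD, n = 3 pools each). Neither pair of groups overlapped, with log2FC of -0.60 (limma adjusted P 0.0924) and -0.57 (limma adjusted P 0.0782). For a single gene, permuting the 3 and 3 samples exactly allows no P below 0.1. Ndufa5 and Ndufa10 had similar levels in IVM replicate 3 and far apart ones elsewhere: their ratio in a sample was 2.68, 3.07 and 1.09 in IVM and 0.0917, 0.0450 and 0.0875 in IVO. This pairs the highest log2FC of the set with one of the most negative, so the ratio restates their levels and is no separate test.

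In the distal part the largest difference was that of Ndufb9, the second LYR protein of the complex, which binds the acyl carrier protein in the membrane arm. It had 98.60, 89.50 and 74.88 FPKM in the IVM samples and 16.14, 12.28 and 18.65 FPKM in the IVO samples. Both groups were tight and far apart, with a log2FC of -2.42 (SE 0.22, limma adjusted P 0.00126). Its partner Ndufab1, the acyl carrier protein itself, moved less, so the ratio of Ndufb9 to Ndufab1 was 0.124, 0.123 and 0.107 in IVM and 0.0288, 0.0211 and 0.0292 in IVO. For the other LYR protein, Ndufa6, the ratio to Ndufab1 was 0.506, 0.414 and 0.364 in IVM and 0.0950, 0.0787 and 0.0972 in IVO.

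Ndufb1, a small subunit with a single membrane pass, had 49.55, 63.32 and 56.33 FPKM in the IVM samples and 14.82, 12.97 and 21.29 FPKM in the IVO samples (log2FC -1.75, SE 0.23, limma adjusted P 0.00363). Ndufb11, the other gene of the set on the X chromosome, had 39.39, 33.63 and 33.17 FPKM in IVM and 11.87, 11.56 and 12.17 FPKM in IVO samples (log2FC -1.50, SE 0.18, limma adjusted P 0.00243). Ndufb11 was the least variable of the DEGs within IVO. Both genes on the X chromosome were DEGs lower in IVO, as were 19 of the 30 genes and 17.9% of all tested genes. The share among all X-linked genes was not computed.

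Ndufb5 had 90.40, 62.03 and 51.83 FPKM in the IVM samples and 27.92, 27.03 and 15.13 FPKM in the IVO samples (log2FC -1.51, SE 0.31, limma adjusted P 0.0148). Ndufb8, among the most abundant distal transcripts, had 390.73, 364.11 and 305.07 FPKM in IVM and 134.27, 129.87 and 183.62 FPKM in IVO samples (log2FC -1.25, SE 0.20, limma adjusted P 0.00636). Ndufb5 and Ndufb8 are membrane-spanning subunits, and neither had overlapping groups. Without IVM replicate 1 the limma adjusted P of Ndufb5 was 0.0526, and the log2FC of Ndufb8 fell short of the fold threshold at -0.93 with median-ratio scaling, -0.74 with quantile normalization and -0.76 with the length trend removed.

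Ndufb4 had 14.85, 5.80 and 9.69 FPKM in the IVM samples and 2.15, 1.75 and 4.72 FPKM in the IVO samples. IVM replicate 2 and IVO replicate 3 were near each other, and the remaining samples apart. The log2FC was -1.51 (SE 0.40, limma adjusted P 0.0345), and the call was lost without IVM replicate 1 or 3 (limma adjusted P 0.112 or 0.102) or without IVO replicate 1 or 2 (0.0935 or 0.102). The table also lists Ndufb4c, a transcribed pseudogene, with 46.62, 24.79 and 35.35 FPKM in IVM and 12.62, 7.19 and 11.39 FPKM in IVO samples. These rows can share reads, and how the fragments were split between Ndufb4 and Ndufb4c is uncertain.

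The other distal genes were not DEGs. Ndufb3 had 84.21, 81.33 and 49.26 FPKM in the IVM samples and 37.17, 22.83 and 44.23 FPKM in the IVO samples, a separation that was narrow between IVM replicate 3 and IVO replicate 3. Its log2FC of -1.03 (SE 0.32) passed the fold threshold but not the test (limma adjusted P 0.0555), and without IVM replicate 3 it was a DEG (limma adjusted P 0.0459). Ndufb2 was level, with 105.61, 107.67 and 111.32 FPKM in the IVM samples and 114.65, 103.08 and 112.32 FPKM in the IVO samples (log2FC 0.02, SE 0.15, limma adjusted P 0.935).

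Ndufb6 was high in both groups, at 196.8 ± 51.5 FPKM in IVM and 151.7 ± 29.5 FPKM in IVO (SD, n = 3 pools each), with overlap and a log2FC of -0.35 (limma adjusted P 0.369). Ndufb7, an intermembrane space subunit, and Ndufb10, which joins it there, were the least abundant of the 30 in IVM. Ndufb7 had 2.38 ± 0.978 FPKM in IVM and 1.04 ± 0.520 FPKM in IVO (log2FC -0.71, limma adjusted P 0.157), resting on 23, 12 and 18 inferred fragments in IVM and 4, 6 and 11 in IVO samples. Ndufb10 had 1.94 ± 0.374 and 1.79 ± 0.471 FPKM (log2FC -0.08, limma adjusted P 0.853), with 20, 16 and 19 inferred fragments in IVM and 15, 12 and 20 in IVO samples. At such depth a difference the size of those of Ndufb8 or Ndufs5 could be missed for these genes.

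Ndufab1, the acyl carrier protein found in both arms and also needed for mitochondrial fatty acid synthesis, had 796.29, 725.02 and 697.62 FPKM in the IVM samples and 560.24, 582.23 and 637.99 FPKM in the IVO samples. All IVO values were below all IVM values by a small margin. The log2FC was -0.32 (SE 0.14, limma adjusted P 0.153), close to the median of all tested genes, and the gene was no DEG.

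**Figure D2:**
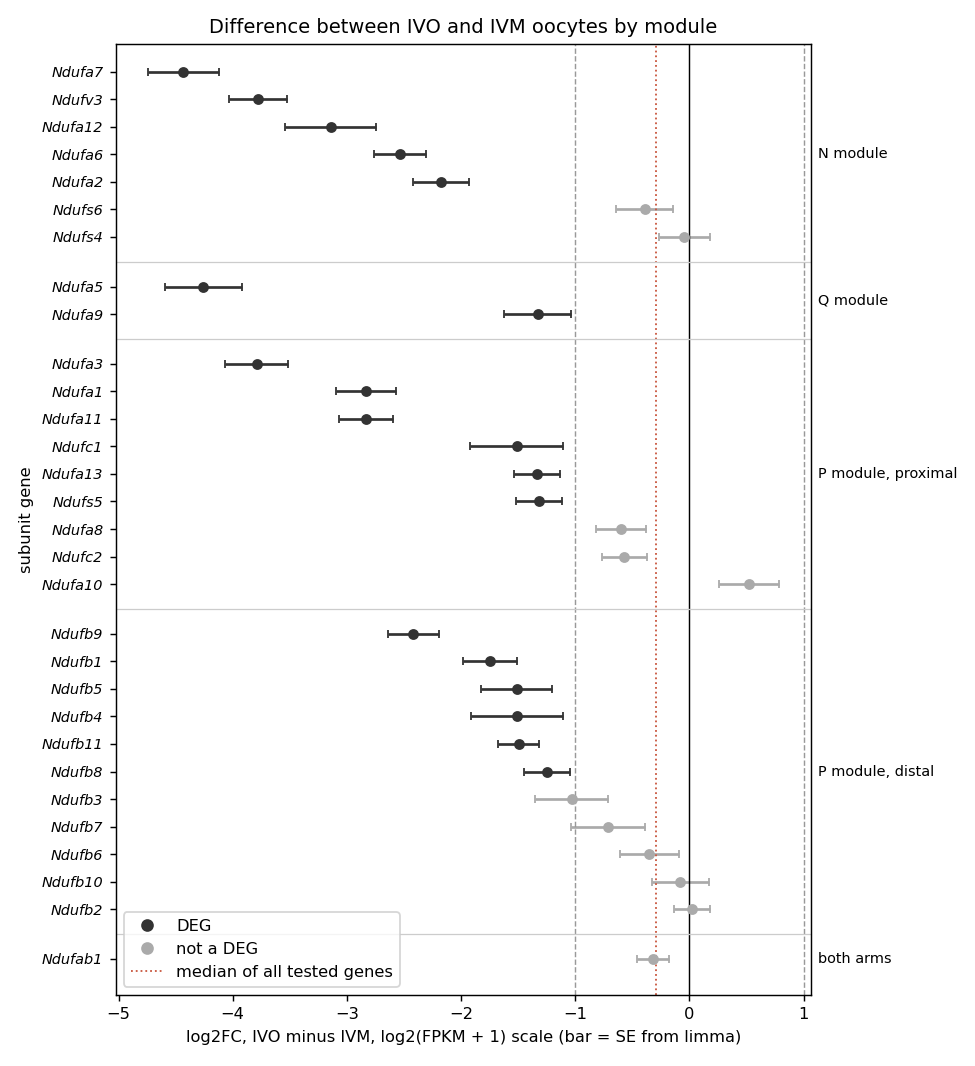
log2FC of each of the 30 genes on the log2(FPKM + 1) scale, IVO minus IVM, with bars for the SE from limma, dark points for DEGs, dashed lines at the fold threshold and a dotted line at the median of all tested genes (-0.30). The 19 DEGs all lie left of -1, and Ndufa10 (0.52) and Ndufb2 (0.02) are the 2 genes right of 0.

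Many of these genes are short, and RNA-seq libraries with different fragment lengths can measure short genes unequally, so the values were set beside gene length. The listed length ran from 315 to 3479 bases with a median of 693.5, compared with a median of 2312 over the 13154 tested Ensembl genes. Among the 30 genes, 9 of 11 under 600 bases were DEGs lower in IVO (81.8%), as were 6 of 12 from 600 to under 1000 bases (50%), 4 of 5 from 1000 to under 2000 bases (80.0%) and 0 of the 2 longest, Ndufa10 and Ndufab1. In the same length classes, 21.8%, 22.8%, 14.6% and 12% of all tested Ensembl genes were DEGs lower in IVO. The median log2FC by class was -2.53, -1.14, -1.34 and 0.10 for the accessory genes and -0.47, -0.36, -0.18 and -0.13 for all tested Ensembl genes.

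Across the 30 genes, the log2FC rose with length at a Spearman rho of 0.29, and across the 13154 tested Ensembl genes at 0.10. Both are descriptions across genes that share the same 6 libraries. Within a class the spread was wide: under 600 bases, Ndufa7 (528 bases, log2FC -4.43) stood beside Ndufs6 (512 bases, -0.39) and Ndufb2 (455 bases, 0.02), and above 1000 bases Ndufv3 (1582 bases, -3.78) stood beside Ndufs4 (1698 bases, -0.05). Restricted to genes under 1000 bases, 4 of 5 N module genes and 10 of 17 P module genes were DEGs, with medians of -2.53 and -1.32. After removal of each library's trend with length, 15 of the 30 were DEGs lower in IVO and the median log2FC was -1.10, against 8.03% of all tested genes.

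**Figure D3:**
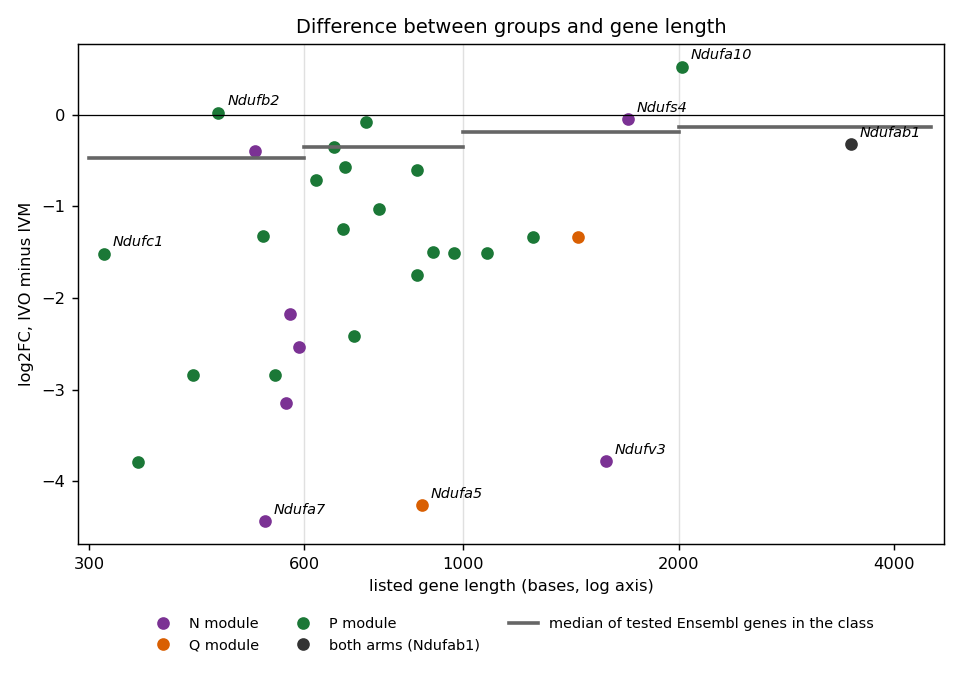
log2FC, IVO minus IVM, against listed gene length in bases on a log axis for the 30 genes, coloured by module, with grey bars at the median of all tested Ensembl genes in each of 4 length classes. Ndufv3 (1582 bases, -3.78) and Ndufs4 (1698 bases, -0.05) differ widely at similar length, as do Ndufa7 and Ndufs6.

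The libraries can also be scaled in other ways. Median-ratio scaling moved the median log2FC of all tested genes from -0.30 to -0.04, and quantile normalization moved it to 0.17. The accessory genes then had medians of -1.11 and -0.93, with 16 and 13 DEGs lower in IVO, against 11.3% and 8.4% of all tested genes. DEGs higher in IVO numbered 0 with median-ratio scaling, against 2.05% of all tested genes, and 1, Ndufa10, with quantile normalization, against 5.83%. With FPKM multiplied by effective over listed length, 20 of the 30 were DEGs lower in IVO, against 19.6% of all genes tested. Effective length is the listed length less the inferred mean fragment length. Fragment numbers were inferred with FPKM taken as levels per effective length. On that reading this setting returns to the listed length and is no correction for fragment length. Over 19 fits, which are the fit to FPKM as deposited and those with another setting or with 1 library left out, 12 genes were DEGs in every fit, 9 in some and 9 in none. The share of all tested genes called in every fit was not computed. The fits reuse the same libraries, so these counts cannot be called particular to the accessory genes. Ndufb7 and Ndufb10, which were DEGs in none, entered 18 of the fits, since they fell under the filter of 5 FPKM. The 12 were Ndufv3, Ndufa2, Ndufa6, Ndufa7, Ndufa12, Ndufa5, Ndufa1, Ndufa3, Ndufa11, Ndufb1, Ndufb9 and Ndufb11. The log2FC was negative in every fit for 23 genes and positive in every fit for Ndufa10.

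**Figure D4:**
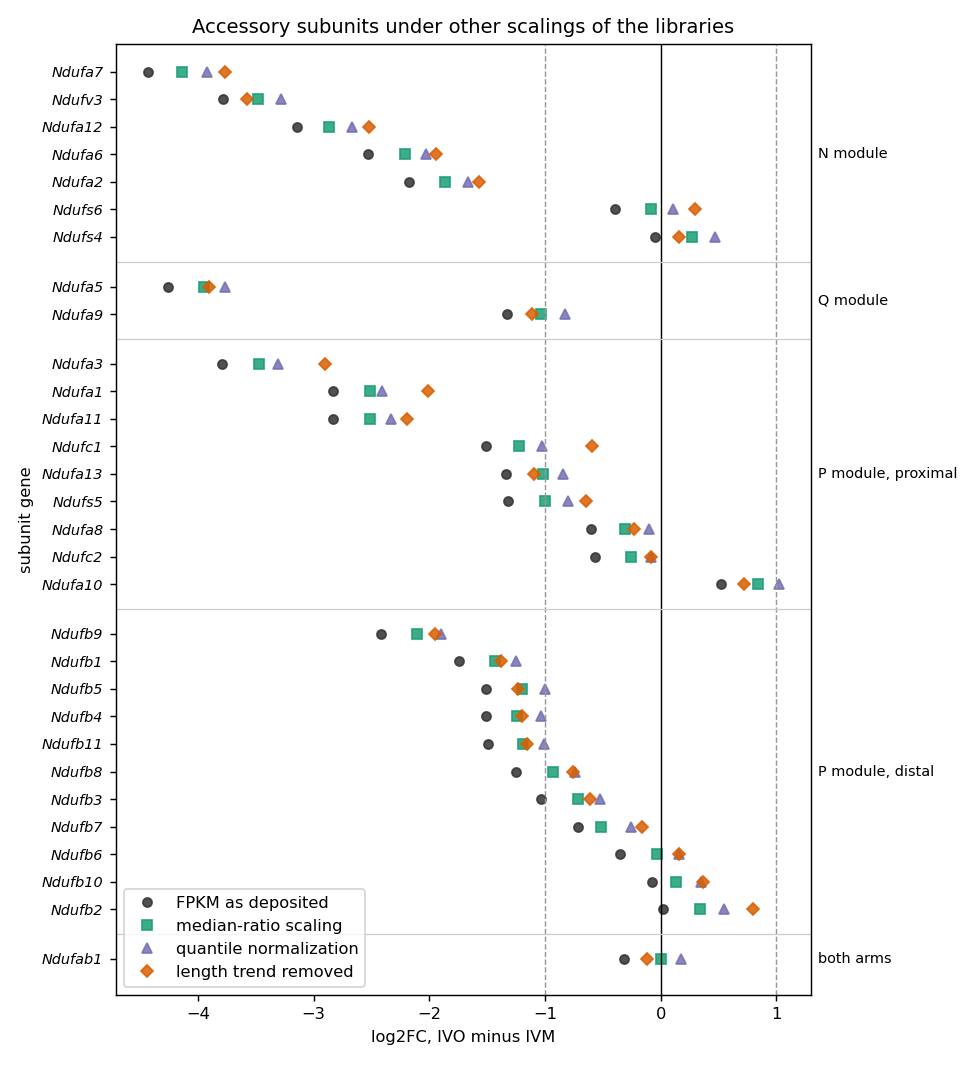
log2FC of each gene, IVO minus IVM, from the FPKM as deposited and after median-ratio scaling, quantile normalization and removal of the length trend, with dashed lines at the fold threshold. The points of Ndufa7, Ndufa5, Ndufv3 and Ndufa3 stay below -2.5 in all 4 settings, while those of Ndufs4, Ndufs6, Ndufb6 and Ndufb10 cross 0.

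The other genes of the complex are given by list. Of the 7 nuclear core subunits, which carry the flavin and the iron-sulfur clusters, 3 were DEGs lower in IVO, against 17.9% of all tested genes. The median log2FC of the 7 was -0.92. The 2 most negative were Ndufs8 (-1.32, limma adjusted P 0.00742) and Ndufs7 (-1.12, limma adjusted P 0.0295), and Ndufs3 had 0.32 (limma adjusted P 0.425). The core list had 1 DEG when any of IVM replicate 1, IVM replicate 3 or an IVO replicate was left out, and 4 without IVM replicate 2. The difference between the accessory and core lists was not tested.

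All 7 core subunits encoded by mitochondrial DNA, the proton-pumping membrane proteins, had a positive log2FC with FPKM as deposited, from 0.20 to 0.94 with a median of 0.61. By limma 0 of the 7 were DEGs. An unadjusted P under 0.05 was reached by 3, all with higher IVO levels, as by 5.56% of all tested genes in that direction, and an adjusted P under 0.05 by 1, mt-Nd4 (0.0328), as by 1.87% of all tested genes in that direction. mt-Nd4 had 967.76, 1724.13 and 1477.04 FPKM in the IVM samples and 2697.08, 3011.79 and 2126.85 FPKM in the IVO samples, without overlap. The number of DEGs was 2 with median-ratio scaling, with quantile normalization or with the length trend removed, 3 with scaling to the same sum, and 1 without IVM replicate 2 or IVO replicate 3. The signs of mt-Nd3 and mt-Nd6, both short, turned with FPKM multiplied by effective over listed length (-0.15 and -0.04). In that setting 6 of the 7 could be tested and the median was 0.51.

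Of 19 assembly factors, which build the complex but are not part of it, 12 were tested. There 2 were DEGs lower in IVO (16.7%), close to the 17.9% of all tested genes. They were Ndufaf8 (-1.23, limma adjusted P 0.00560) and Ndufaf5 (-1.10, limma adjusted P 0.0205, named after its values were seen), and the median log2FC of the 12 was -0.53. The number was 4 without IVM replicate 2 and 1 without IVO replicate 1 or 2. Ndufaf3 had the most negative value (-1.28, limma adjusted P 0.0573), and the highest values were those of Acad9 (0.12) and Ndufaf4 (-0.02). Ndufa4, once counted as a complex I subunit and now assigned to complex IV, had 2800.19, 3445.09 and 2444.20 FPKM in IVM and 593.86, 490.49 and 737.31 FPKM in IVO samples, with a log2FC of -2.26 (SE 0.21, limma adjusted P 0.00124).

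Reads of some of these genes cannot be assigned without doubt. The library kit does not mark strand, and 17 of the 30 genes share exonic bases with a gene on the opposite strand. Of the annotated transcript of Ndufb11, 65.4% overlaps Rbm10, which had a mean of 861 FPKM in IVM and 598 FPKM in IVO and so exceeded Ndufb11 in both groups. Ndufa6 shares 59.0% with Smdt1 (32.7 and 8.95 FPKM), Ndufb1 55.3% with Cpsf2 (11.5 and 14.4 FPKM), Ndufa3 48.4% with Tfpt (12.9 and 10 FPKM) and Ndufb3 27.2% with Hycc2 (784 and 478 FPKM). Ndufa2 shares 12.4% with Tmco6, which was much more abundant at 3715 and 2545 FPKM. The part of these neighbours in the values was not tested.

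Copies elsewhere in the genome are a further limit. The table lists 82 other Ensembl rows under the same ortholog names, 76 of them pseudogenes. Among those with 1 FPKM or more in a group mean, Ndufa12-ps had 15.09, 4.01 and 7.81 FPKM in IVM and 0, 1.43 and 0.75 FPKM in IVO samples, lower in IVO like Ndufa12. Ndufb11b had means of 4.33 FPKM in IVM and 4.09 in IVO, and Ndufab1-ps had 1.92 and 3.44 FPKM.

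Promoter sequences of the genes were also compared with those of other genes. Whether promoters have a part in the differences between IVM and IVO was not tested. RefSeq sequences of 300 bases around the start (GRCm38.p6) matched 28 of the 30 genes, and both strands were searched for 3 words. GCATGCG, the core of the NRF1 site, stood in 3 (Ndufa6, Ndufa8 and Ndufa11), or 10.7%, compared with 4.01% of 27025 genes with a promoter sequence. AAGATGG, the core of the YY1 site, stood in 6 (Ndufa3, Ndufa9, Ndufb8, Ndufc1, Ndufs4 and Ndufs6), or 21.4%, compared with 7.28%. CGGAAGT, the core of the ETS and GABP site, stood in Ndufa9 alone, or 3.57%, compared with 7.20%. Any of the 3 was found for 9 genes (32.1%), compared with 16.9%, and genes with AAGATGG ranged from Ndufa3 (log2FC -3.79) to Ndufs4 (-0.05). The 27025 genes were not limited to those tested here, unlike the genes compared for the 3′ ends. The higher shares therefore cannot be credited to these subunits. A match is a run of letters and not a bound site.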

How the data were processed

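RNA-seq was done on 3 IVM and 3 IVO pools, grouped by the sample labels. The authors amplified cDNA with SMART-Seq v4, made Nextera XT libraries, sequenced 150 bp paired ends, trimmed them with SeqPrep and Sickle, and aligned them to GRCm39 with HISAT2 2.1.0. FPKM were computed by the authors with RSEM 1.3.3 and deposited for each gene in each sample. The deposited group means were not used, and the counts that the authors tested with DESeq2 1.24.0 were not analysed here.

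FPKM entered as deposited. Differences were tested with limma 3.58.1 in R 4.3.3 (lmFit, eBayes with trend, two-sided) on log2(FPKM + 1) for the 18818 genes whose mean FPKM reached 1, with Benjamini-Hochberg adjustment over all of them. This scale understates changes of low genes. A DEG needed |log2FC| ≥ 1 together with an adjusted P under 0.05. On simulated data with 200 changed genes of 18818, the fit called 182 (91%) and 6 unchanged genes. The deposited FPKM gave 3366 DEGs lower in IVO and 114 higher, and how the fit performs with that many was not tested. All 30 genes are named, with the 2 most negative and 2 most positive of other lists at most. Ndufaf5 and Ndufaf2 were named outside this rule, after their values were seen, as were neighbours, copies and markers that touch a value. The members and lists were chosen with earlier results of these data known. Alternatives covered the pseudocount (0.1), the filter, the scaling, the trend, Ensembl genes only, a replicate block, gene length and each sample left out.

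Depth and fragment length were inferred from the spacing of low FPKM values, of which 70.9% to 75.4% per library lay within 0.15 of a whole number of fragments. Fragment numbers reflect counting error only, because cDNA was amplified, and no count test was run on them. Overlaps and 3′ ends used the GRCm39 annotation (the transcript closest to the listed length), promoters RefSeq on GRCm38.p6. Python 3.11.15 and pandas 2.3.3 were used.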

Additional observations from a re-analysis of the deposited data

How the results depend on the processing

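The number of accessory DEGs lower in IVO stayed between 13 and 20 over the settings tried, and all settings kept the negative median. The median log2FC of the 30 genes was -1.11 with median-ratio scaling, -0.93 with quantile normalization, -1.10 with scaling to the same sum and -1.10 with the length trend removed. With 1 sample left out, the DEGs numbered 16 to 19 for the 30 genes, 5 for the N module, 1 to 2 for the Q module (1 without IVO replicate 1 or 2), 9 to 12 for the P module, 1 to 4 for the nuclear core, 1 to 4 for the assembly factors and 2363 to 3304 for all tested genes, and the median log2FC of the 30 was -1.48 to -1.22. The replicate numbers do not pair the samples: deviations of same-numbered samples correlated at -0.06, -0.02 and -0.11. With the replicate block the accessory DEGs numbered 19, the core 1, the assembly factors 1 and all tested genes 2991, and no call on an accessory gene changed. With the replicate block added to the length correction, the accessory genes had a median of -1.10, with 13 DEGs, the P module had 7, the Q module 1, the core 0, the assembly factors 0 and all tested genes 929. With the length trend removed alone, the core had 1, the assembly factors 0 and all genes 2068. Ensembl genes only gave 2056 DEGs. The core had 1 DEG without a filter, with median-ratio scaling and with the same sum, and 0 with quantile normalization. The assembly factors had 1 at a mean FPKM of at least 5 and 0 with median-ratio scaling, quantile normalization or the same sum. They had 4 with FPKM multiplied by effective over listed length. Quantile normalization left 1 DEG in the Q module, and moving Ndufa6 and Ndufa7 gave 4 in Q and 3 in N. The cause of these shifts was not tested. No sign of a DEG was reversed. Signs turned for Ndufs4, Ndufb10 and Ndufab1 with median-ratio scaling (0.27, 0.13 and 0.0045) and with the same sum (0.29, 0.14 and 0.021). With quantile normalization they turned for Ndufs4 (0.47), Ndufs6 (0.11), Ndufb6 (0.15), Ndufb10 (0.35) and Ndufab1 (0.17). With the length trend removed, with or without the block, they turned for Ndufs4 (0.15), Ndufs6 (0.30), Ndufb6 (0.16) and Ndufb10 (0.37). With FPKM multiplied by effective over listed length the sign of Ndufb2 turned (-0.29). With 1 sample left out, the log2FC ran from -0.25 to 0.10 for Ndufs4 (turned without IVM replicate 1 or 2), from -0.20 to 0.040 for Ndufb10 (turned without IVM replicate 1 or IVO replicate 2) and from -0.0076 to 0.068 for Ndufb2 (turned without IVO replicate 1). Depth limits Ndufb7, Ndufb10 and Ndufc1, whose IVO values rest on 20 or fewer inferred fragments.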
